A study of Mus musculus with 8 samples.

Results

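The genes described here are 6 acute-phase genes, Saa3, Lcn2, Hp, Lrg1, Steap4 and Ptx3, out of 41388 gene identifiers counted in microglia sorted from mice with neuromyelitis optica (NMO) and from control mice. They were matched by symbol and were selected on their measured counts in these libraries: Saa3 was almost silent in controls and persisted in CD11c+ cells, whereas Lcn2 and Hp did not persist there. Their levels and fold changes across the 3 groups are therefore given as a description, with no test. Of the 6 genes, 4 (Saa3, Lcn2, Hp and Lrg1) passed the filter on low counts. The name under which the genes were grouped, acute-phase genes of diseased microglia, held in these data for Saa3 alone: Lcn2, Hp and Lrg1 were present in control libraries and near 0 in the CD11c+ cells of diseased mice, and Steap4 and Ptx3 were at or near 0 in every library.

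RNA was sequenced from 8 libraries of microglia, the macrophages that reside in brain and spinal cord, isolated from adult C57BL/6 mice by sorting on CD11b, CD45 and CD11c. The NMO mice gave CD11c+ (n = 2) and CD11c- (n = 3) libraries, and control mice gave the remaining 3. NMO is an inflammation of the optic nerve and spinal cord, and the sources used here do not state how it was produced in the mice. The control cells are labelled CD11c negative, while their titles describe total microglia of unmanipulated mice, so it is uncertain whether CD11c+ cells were removed from them. No label ties a library to its own mouse, and the spread between libraries may be technical. They give no batch, and NMO and control libraries are numbered apart, so handling and disease cannot be told apart in comparisons with controls.

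In the acute-phase response, inflammatory cytokines such as interleukin-6 and interleukin-1 change the output of secreted proteins, classically in the liver, through the transcription factors STAT3, C/EBP and NF-kappa B. Serum amyloid A3 (Saa3) is the family member made largely outside the liver, by macrophages among other cells. Lipocalin-2 (Lcn2), which starves bacteria of iron by binding their siderophores, and haptoglobin (Hp), which binds free haemoglobin, are liver products that are also carried by neutrophils, and Lcn2 is known in the brain as a product of reactive astrocytes. Leucine-rich alpha-2-glycoprotein (Lrg1) is a secreted modulator of TGF-beta signalling, Steap4 is a metalloreductase of the membrane, and pentraxin 3 (Ptx3) is a soluble pattern recognition molecule.

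The promoters of Saa3 and Lcn2 are shown because Saa3 persisted and Lcn2 was nearly absent in CD11c+ cells. Each is the 250 bases before the RefSeq start in GRCm38.p6, written on the gene's own strand. Capitals mark matches, on either strand, to a C/EBP motif (TTGCNNAA), a STAT motif (TTCNNNGAA), an interferon-stimulated response element (ISRE) or the kappa B consensus, and no marked match overlaps another.
Saa3, chr7:46715677-46715926, minus strand: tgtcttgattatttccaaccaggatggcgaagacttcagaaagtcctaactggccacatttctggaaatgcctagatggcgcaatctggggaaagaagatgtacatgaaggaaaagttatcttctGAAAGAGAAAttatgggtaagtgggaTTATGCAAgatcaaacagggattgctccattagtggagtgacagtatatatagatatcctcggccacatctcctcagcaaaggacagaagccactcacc
Lcn2, chr2:32387740-32387989, minus strand: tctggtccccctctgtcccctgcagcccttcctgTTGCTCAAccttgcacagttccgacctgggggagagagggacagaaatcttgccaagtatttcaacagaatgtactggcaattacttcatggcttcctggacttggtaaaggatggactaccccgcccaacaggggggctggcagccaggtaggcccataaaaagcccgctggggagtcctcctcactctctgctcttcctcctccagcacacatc
The Saa3 window held a C/EBP match from 99 to 92 bases before the start, read on the opposite strand, and an ISRE match from 125 to 116 bases before it. The Lcn2 window held 1 C/EBP match, from 216 to 209 bases before the start. Among 32851 mouse promoter windows of the same length, 9.56% held the C/EBP motif, 7.02% the STAT motif, 5.0% the kappa B consensus and 2.98% the ISRE. The Lrg1 window held none of the 4 motifs, that of Steap4 held C/EBP, STAT and kappa B matches, and that of Ptx3 held a C/EBP match from 57 to 50 bases before the start. These matches describe letters in the windows and do not show binding.

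Library totals were 4943207 and 5914412 counts in the CD11c+ group, 6437516 to 6819662 in the NMO CD11c- group and 7500815 to 9246061 in controls. CD11c+ replicate 1 stood apart: its levels rose with the GC content of genes (Spearman 0.606 across genes), against -0.313 to -0.0333 in the other 7 libraries. All 10 microglial markers were detected in every library, with a summed level of 32731 to 34482 CPM (counts relative to the scaled library size) in CD11c+ cells, 34203 to 42389 CPM in NMO CD11c- cells and 42003 to 46302 CPM in controls.

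Saa3 was the 1 acute-phase gene of the 6 with more than 3 counts in each NMO subset and fewer than 3 in controls. The libraries held 46 and 124 Saa3 counts in NMO CD11c+ cells, 110, 233 and 236 in NMO CD11c- cells and 1, 1 and 0 in controls. These counts correspond to 9.40 and 21.8 CPM in CD11c+ cells, against 16.5, 35.1 and 34.7 CPM in CD11c- cells and 0.122, 0.107 and 0 CPM in controls. Both NMO groups lay above every control library, and the NMO subsets overlapped each other.

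The summed Saa3 count per library size in CD11c+ cells was 202 times that in controls (exact 95% interval 55.1 to 1680, from 170 counts against 2). Between the NMO subsets the fitted log2 fold change of Saa3 was -0.87 (SE 0.385), CD11c+ over CD11c-. It was -0.84 after a correction for GC content and transcript length, -0.40 without CD11c+ replicate 1, the library that stood apart, and -1.61 without CD11c+ replicate 2. With the mean level of neutrophil markers as a covariate it was 0.05, so neither the size nor the direction of the difference held under all alternatives. Marker levels were far apart between the subsets, so the value with the covariate is extrapolated and cannot tell markers and subset apart. Saa3 (ENSMUSG00000040026) lies on the minus strand of chromosome 7 at 46711998 to 46715700 in GRCm38. Of the 506 stretches of 50 bases in its 555-base transcript, 9 (1.78%) also occur in Saa1, its neighbour in the family, and of the 2151 stretches in its 2200-base transcript, 84 (3.91%) also occur in other genes, 244 in number. The liver-type members were nearly undetected: Saa1 had 1 count and Saa2 had 2 counts, all in CD11c- replicate 1, and Saa4 had 0.

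**Figure D1:**
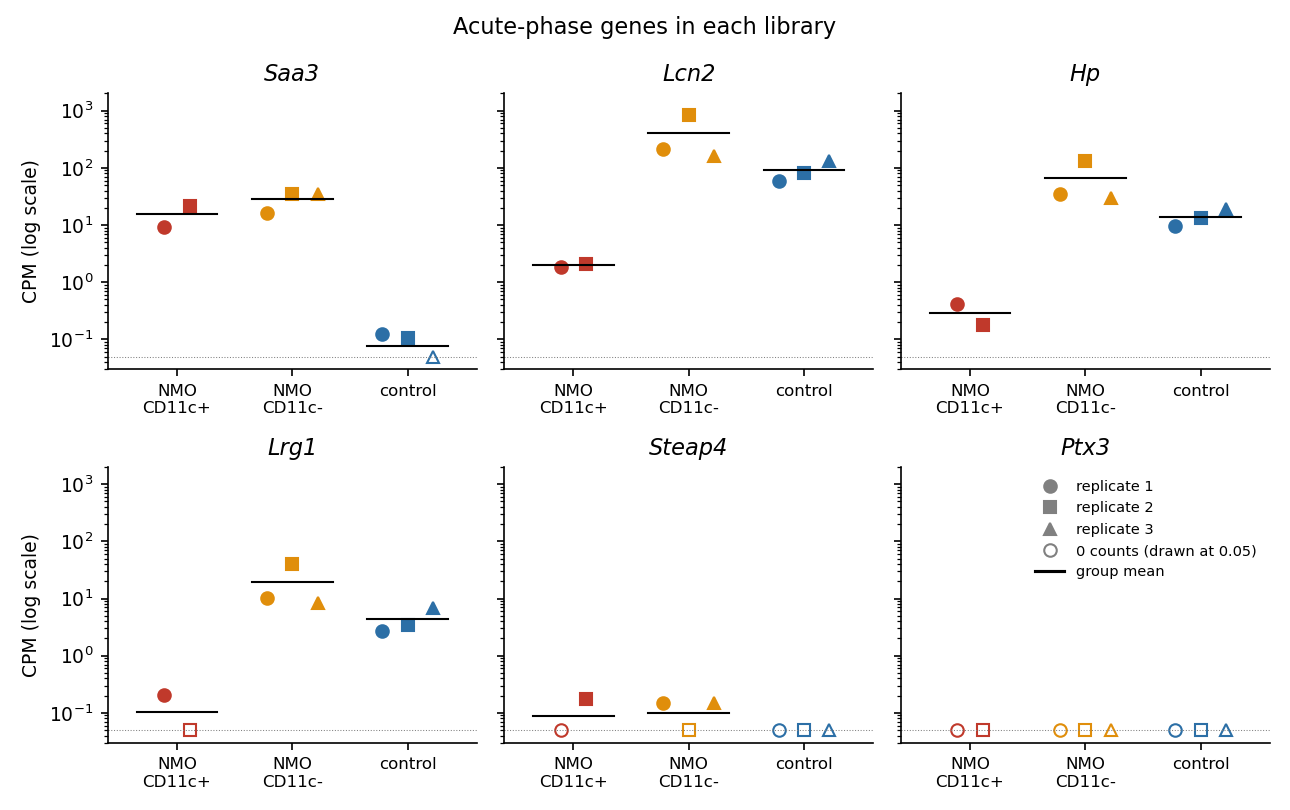
Level of the 6 acute-phase genes in each library, in CPM on a log axis; points are libraries, lines are group means, and open points are libraries with 0 counts, drawn at 0.05. Saa3 lies above every control in both NMO subsets, whereas Lcn2, Hp and Lrg1 are low in the CD11c+ libraries and highest in CD11c- replicate 2.

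Lcn2 followed another pattern, with reads in controls, more in NMO CD11c- cells and few in CD11c+ cells. The libraries held 9 and 12 Lcn2 counts in CD11c+ cells, 1413, 5643 and 1080 in NMO CD11c- cells and 487, 770 and 1028 in controls. The mean was 1.98 ± 0.195 CPM in CD11c+ cells (SD, n = 2), against 407 ± 385 CPM in CD11c- cells and 92.2 ± 38.4 CPM in controls (n = 3 each). No CD11c+ library overlapped either other group, and every CD11c- library lay above every control, with replicate 2 far above the rest. The fitted log2 fold change of Lcn2 was -7.67 (SE 1.02) for CD11c+ over CD11c-, -6.53 without CD11c- replicate 2, and -5.52 (SE 1.0) for CD11c+ over control. For CD11c- over control it was 2.14 (SE 0.563), and 1.01 without CD11c- replicate 2. Lcn2 (ENSMUSG00000026822) lies on the minus strand of chromosome 2 at 32384633 to 32388252.

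Haptoglobin moved in the same order at a lower level. Hp had 2 and 1 counts in CD11c+ cells, 238, 886 and 199 in NMO CD11c- cells and 79, 126 and 146 in controls, so again all CD11c- libraries lay above all controls and both lay above the CD11c+ libraries. Its summed count per library size was 232 times lower in CD11c+ than in CD11c- cells (exact 95% interval 79.1 to 1120) and 49.2 times lower than in controls (16.7 to 240). For CD11c- over control the fitted log2 fold change of Hp was 2.23 (SE 0.527), and 1.21 without CD11c- replicate 2. Hp (ENSMUSG00000031722) lies on the minus strand of chromosome 8 at 109575128 to 109579172.

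Lrg1 was the lowest of the genes with reads in every control. It had 1 and 0 counts in CD11c+ cells, 69, 262 and 58 in NMO CD11c- cells and 22, 32 and 53 in controls, with CD11c- libraries above controls and controls above CD11c+ libraries. The summed count per library size was 204 times lower in CD11c+ than in CD11c- cells (exact 95% interval 36.5 to 8090) and 45.0 times lower than in controls (7.9 to 1790). For CD11c- over control the log2 fold change of Lrg1 was 2.17 (SE 0.586), and 1.13 without CD11c- replicate 2. Lrg1 (ENSMUSG00000037095) lies on the minus strand of chromosome 17 at 56119678 to 56122001.

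Steap4 and Ptx3 could not be compared at this depth. Steap4 (ENSMUSG00000012428, chromosome 5 at 7960457 to 7982213, plus strand) had 0 and 1 counts in CD11c+ cells, 1, 0 and 1 in NMO CD11c- cells and 0 in all 3 controls. Ptx3 (ENSMUSG00000027832, chromosome 3 at 66219910 to 66225805, plus strand, within the span of Veph1 but sharing 0 exonic bases with it) had 0 counts in all 8 libraries. A count of 0 allows a group level of up to 0.284 CPM in CD11c+ cells, 0.149 CPM in CD11c- cells and 0.119 CPM in controls.

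Between genes, levels were compared as mean CPM per kilobase of transcript. In CD11c+ cells Saa3 ranked first, at 7.10 or 28.1 by its 2200-base or 555-base transcript, ahead of Lcn2 at 2.16, Hp at 0.217 and Lrg1 at 0.0725. NMO CD11c- cells had Lcn2 first at 444, with Hp at 49.1, Lrg1 at 13.8 and Saa3 at 13.1 or 51.8 by transcript. Controls had Lcn2 first at 101, with Hp at 10.5, Lrg1 at 3.09 and Saa3 last at 0.0348 or 0.138. The place of Saa3 beside Hp and Lrg1 in CD11c- cells thus depends on the transcript used. By the longer transcript it also rests on CD11c- replicate 2, where Saa3 stood at 15.9 and Lrg1 at 28.0 per kilobase: Saa3 was ahead of Lrg1 in replicate 1 (7.48 against 7.33) and replicate 3 (15.8 against 6.05). Its first place in CD11c+ cells and last place in controls do not depend on the transcript. Among 11946 genes ranked by CPM per kilobase of the longest transcript, Lcn2 stood at place 9614 in CD11c+ cells, 82 in CD11c- cells and 465 in controls. Saa3 stood at place 6844 in CD11c+ cells, 4790 in CD11c- cells and 11943 in controls. Only genes that passed the low-count filter were ranked, and Saa3 passed it through its NMO libraries alone. It was also selected for near-silence in controls, so its place there was fixed in advance and is no separate result.

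Neutrophil markers as a sum followed the same order of groups as Lcn2, Hp and Lrg1. The summed level of 16 such markers was 17.4 to 21.1 CPM in CD11c+ cells, 2154 to 11160 CPM in NMO CD11c- cells and 894 to 1851 CPM in controls, highest in CD11c- replicate 2. At 0 were 3 to 6 of the 16 in CD11c+ libraries, 0 or 1 in CD11c- libraries and 1 in each control. Ly6g, a defining neutrophil marker, had 0 counts in both CD11c+ libraries and averaged 16 ± 9.44 CPM in CD11c- cells and 4.62 ± 2.57 CPM in controls. Ltf, which encodes the granule protein lactoferrin, had 23 and 27 counts in CD11c+ cells, 4077, 14891 and 3053 in CD11c- cells and 1555, 2337 and 3081 in controls. Further granule genes, Camp and Ngp, averaged 0.571 and 3.94 CPM in CD11c+ cells, 339 and 1255 CPM in CD11c- cells and 71.1 and 302 CPM in controls. Retnlg and Mmp8, also on the list, did not peak in CD11c- replicate 2. In CD11c- replicates 1, 2 and 3 Retnlg stood at 40.4, 26.0 and 30.6 CPM and Mmp8 at 56.4, 44.7 and 40.0 CPM. In control replicate 3 they reached 25.1 and 39.8 CPM. In bulk RNA, fewer cells of a type and less RNA per cell cannot be told apart.

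Set against Ltf, a denominator chosen after its values were seen, Lcn2 varied little. Ltf had the profile nearest to Lcn2 among 12001 genes, so a steady ratio was fixed by that choice. Per 100 Ltf counts there were 39.1 and 44.4 Lcn2 counts in CD11c+ cells (exact 95% intervals 15.9 to 87.8 and 20.5 to 90.7), 34.7, 37.9 and 35.4 in CD11c- cells and 31.3, 32.9 and 33.4 in controls. The Lcn2 level in CPM spanned 462-fold over the same 8 libraries. The highest Lcn2 ratio was 1.42 times the lowest with Ltf, 1.84 with Ngp and 3.63 with Camp. It was 2.35 times with S100a8 and 2.39 with S100a9, further neutrophil markers. Per 100 Camp counts, Lcn2 stood at 300 to 400 in CD11c+ cells, from 3 Camp counts a library, and at 110 to 146 in all others. Hp gave 8.70 and 3.70 per 100 Ltf counts in CD11c+ cells, 5.84, 5.95 and 6.52 in CD11c- cells and 5.08, 5.39 and 4.74 in controls. Lrg1 gave 4.35 and 0 in CD11c+ cells, 1.69, 1.76 and 1.90 in CD11c- cells and 1.41, 1.37 and 1.72 in controls. The values in CD11c+ cells rest on 0 to 12 counts a gene.

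Saa3 did not keep a steady ratio to Ltf. Per 100 Ltf counts there were 200 and 459 Saa3 counts in CD11c+ cells, 2.70, 1.56 and 7.73 in CD11c- cells and 0.0643, 0.0428 and 0 in controls. The CD11c+ libraries, in which the neutrophil markers were lowest, thus held more Saa3 than Ltf counts. With S100a8, a subunit of calprotectin, as the denominator, Lcn2 stood at 90.0 and 57.1 per 100 counts in CD11c+ cells, 38.3, 51.7 and 45.8 in CD11c- cells and 42.8, 53.3 and 53.5 in controls, while Saa3 stood at 460 and 590.5 in CD11c+ cells, 2.98, 2.13 and 10.0 in CD11c- cells and 0.0879, 0.0692 and 0 in controls.

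**Figure D2:**
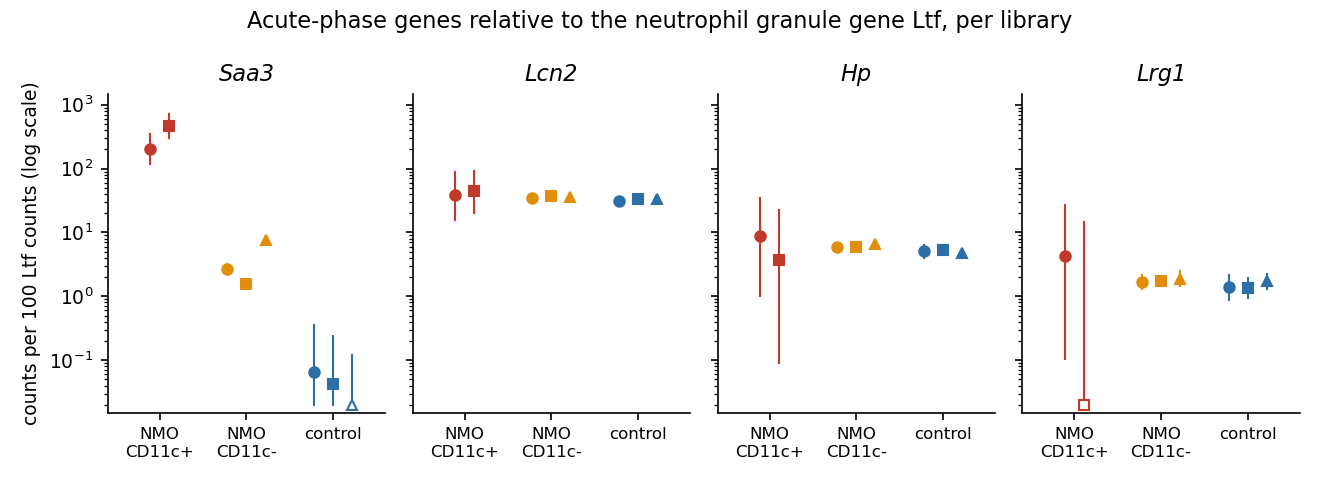
Counts of Saa3, Lcn2, Hp and Lrg1 per 100 counts of Ltf in each library, on a log axis; circles, squares and triangles are replicates 1, 2 and 3, bars are exact 95% intervals cut at 0.02, and open points are libraries with 0 counts, drawn at 0.02. Lcn2, Hp and Lrg1 keep similar ratios in the libraries of CD11c- and control cells, while Saa3 is far higher in the CD11c+ libraries.

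With the mean log2 level of the neutrophil markers as a covariate, the fitted log2 fold change of Lcn2 was -0.07 for CD11c+ over CD11c-, -0.22 for CD11c- over control and -0.30 for CD11c+ over control. In the same fit CD11c- over control gave 0.09 for Hp and -0.10 for Lrg1, and CD11c+ over CD11c- gave 0.05 for Saa3. The summed markers were 17.4 to 21.1 CPM in CD11c+ libraries and at least 894 CPM in all others. The covariate thus nearly coincided with the CD11c+ group, and its values for that group are extrapolated. It also holds genes among those with profiles nearest to Lcn2 (Ltf, Ngp, S100a8), Hp (Cd177) and Lrg1 (Wfdc21). Small values for these 3 genes follow from that make-up, also for CD11c- over control, and are no independent adjustment. The 8 astrocyte markers had a sum of 123 to 124 CPM in CD11c+ cells, 122 to 156 CPM in CD11c- cells and 124 to 136 CPM in controls, nearly all of it from Slc1a3, at 116 CPM in CD11c+ cells, 131 CPM in CD11c- cells and 126 CPM in controls. The 4 tested astrocyte markers had a median log2 fold change of 0.716 for CD11c+ over control and 0.516 for CD11c- over control. In these comparisons 0 of the 4 were called by edgeR, where 10.2% and 3.72% of all tested genes were called. An unadjusted p under 0.05 was found for 1 and 0 of the 4, against 28.8% and 18.8% of all tested genes. With 4 genes, such counts cannot be told apart from those shares. Of the astrocyte-defining genes Aqp4 had 0 to 3 counts and Gfap 0 to 10 counts a library. Monocyte markers summed to 76.1 to 77.2 CPM in CD11c+ cells, 227 to 1029 CPM in CD11c- cells and 92.5 to 171 CPM in controls. Chil3 carried most of that range, at 0.659 CPM in CD11c+ cells, 114 to 866 CPM in the CD11c- libraries and 83.1 CPM in controls. Other monocyte markers differed in pattern: Ccr2 averaged 11.0 CPM in CD11c+ cells, 13.1 CPM in CD11c- cells and 9.12 CPM in controls, and Ms4a4c averaged 11.5 CPM in CD11c+ cells, 9.95 CPM in CD11c- cells and 2.04 CPM in controls. The part of neutrophils, monocytes or other cells in the levels of Lcn2, Hp and Lrg1 was not tested.

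Genes with the most similar profiles were found by the root mean square difference of centred log2 levels over the 8 libraries, among 12001 genes. The 5 nearest to Lcn2 were Ltf (0.191), Anxa1 (0.218), Ngp (0.339), Hp (0.340) and S100a8 (0.354), where the median of all genes was 2.89. For Hp they were Anxa1 (0.168), Cd24a, Cd177, Lcn2 and Serpinb1a (0.384), against a median of 2.64. For Lrg1 they were Ly6c2 (0.191), Wfdc21, I830127L07Rik, Trem3 and Gda (0.316), against a median of 2.21. Of these, Ltf, Ngp, S100a8, Cd177 and Wfdc21 stand on the neutrophil list and Ly6c2 on the monocyte list. Lcn2 and Hp were selected for the same loss in CD11c+ cells, so their closeness to each other follows in part from that.

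No gene came as close to Saa3. Its 5 nearest were Ch25h (1.42), Ccl5 (1.43), Ifi27l2a (1.46), Cxcl10 (1.46) and Oas1g (1.46), against a median of 2.92. Levels were centred but not scaled, so the distance grows with the size of a gene's changes. Saa3 was selected for near-silence in controls, so large distances follow in part from that selection. Ch25h makes 25-hydroxycholesterol, Ccl5 and Cxcl10 are chemokines, and Ifi27l2a and Oas1g are interferon-induced genes. Cxcl10 averaged 56.6 CPM in CD11c+ cells, 51.2 CPM in CD11c- cells and 5.82 CPM in controls, so it was less extreme than Saa3 in its controls. Ly6c2 and Oas1g have near-identical relatives, so their counts are uncertain.

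**Figure D3:**
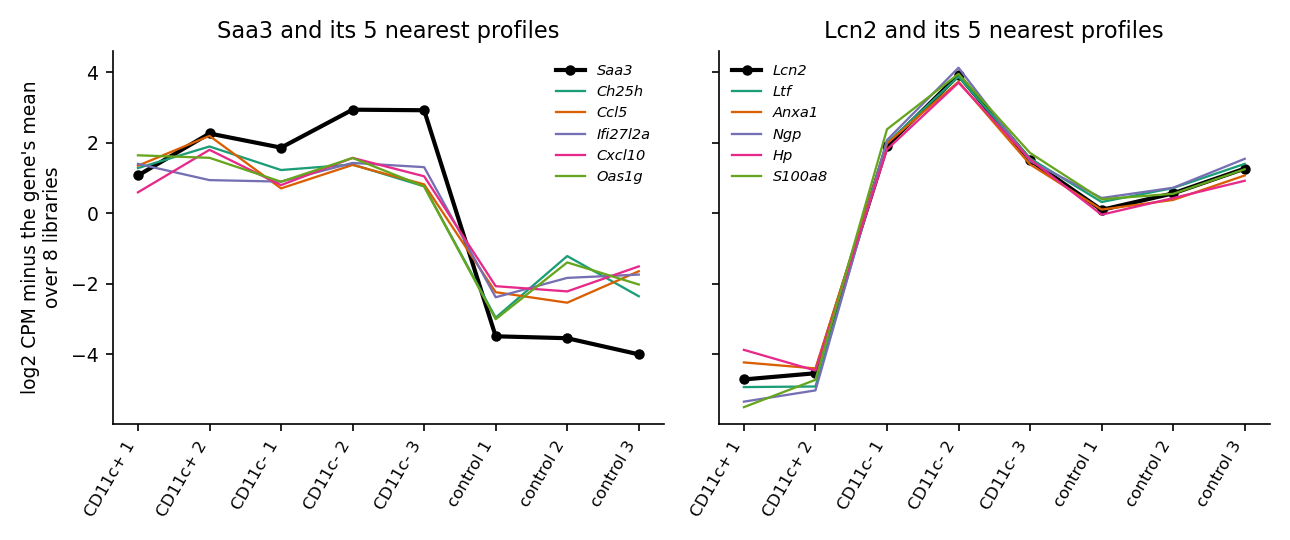
Log2 CPM minus the gene's own mean in each of the 8 libraries, for Saa3 (left) and Lcn2 (right) as black lines and for the 5 genes with the most similar profile to each as coloured lines. The neighbours of Lcn2 lie within 0.354 of it (root mean square), and those of Saa3 lie 1.42 to 1.46 away.

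Of 38 other acute-phase genes, 12 had 0 counts in all libraries, among them Crp, Apcs and the 3 fibrinogen genes, 9 more had 1 to 10 counts in all, and 13 could be tested. The list includes genes whose output falls in the acute-phase response, such as Alb and Ttr. Its medians and counts of calls thus pool both directions and do not measure the response. Between the NMO subsets 0 of the 13 were called by the edgeR quasi-likelihood test, where 0.100% of all 12002 tested genes were called higher and 0.183% lower (0.283% in either direction). An unadjusted p under 0.05 was found for 6 of the 13, against 1853 of all tested genes (15.4%), and DESeq2 called 1 of the 13 higher and 1 lower, against 107 and 161 of all tested genes. The median log2 fold change of the 13 was 0.0191, against 0.00968 over all tested genes.

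For NMO CD11c- over control cells, 2 of the 13 genes were called, both higher, where 3.0% of tested genes were called higher and 0.717% lower (3.72% in either direction). They were Cp, which encodes the ferroxidase ceruloplasmin, and C4b, which encodes complement component 4. Cp averaged 25.8 ± 1.29 CPM in CD11c- cells and 6.90 ± 2.22 CPM in controls (SD, n = 3 each), a log2 fold change of 1.89 (SE 0.202, edgeR adjusted p = 0.000843). C4b averaged 118 ± 13.3 CPM in CD11c- cells and 15.9 ± 3.52 CPM in controls, a log2 fold change of 2.89 (SE 0.157, edgeR adjusted p = 2.59e-05), though a near-identical neighbouring gene, C4a, makes its counts uncertain. The median log2 fold change of the 13 was 0.189, against -0.00397 over all tested genes. An unadjusted p under 0.05 (edgeR) was found for 9 of the 13, against 18.8% of all tested genes.

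For CD11c+ over control cells, which share the same control libraries, 3 of the 13 were called, all higher, where 6.85% of tested genes were called higher and 3.36% lower (10.2% in either direction). C4b averaged 119.8 CPM in CD11c+ cells and 15.9 CPM in controls (log2 fold change 2.91, edgeR adjusted p = 1.51e-05), and Cp 17.6 CPM in CD11c+ cells and 6.90 CPM in controls (1.34, edgeR adjusted p = 0.0061). Both genes were above every control in each NMO library, and both stayed called in both comparisons without any 1 library; the Cp call was lost with the neutrophil covariate, at an adjusted p of 0.0899 for CD11c- and 0.536 for CD11c+ over control. Il1rn, the interleukin-1 receptor antagonist, was called in CD11c+ cells at 6.32 ± 4.02 CPM against 1.71 ± 0.676 CPM in controls (log2 fold change 1.91, edgeR adjusted p = 0.0395), and lost the call without CD11c+ replicate 2 (0.204), CD11c- replicate 1 (0.0569), or control replicate 1 (0.123), 2 (0.126) or 3 (0.0672). In CD11c- cells Il1rn averaged 5.83 ± 2.16 CPM, close to CD11c+ cells, and was not called over control (log2 fold change 1.78, edgeR adjusted p = 0.0633). For CD11c+ over control the median of the 13 was 0.0124, against 0.00607 over all tested genes. An unadjusted p under 0.05 (edgeR) was found for 5 of the 13, against 28.8% of all tested genes.

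C3, Orm1 and Lbp, also acute-phase genes, were not called in any of the 3 comparisons, and each was highest in CD11c- replicate 2. C3, the central complement component, had 218 and 191 counts in CD11c+ cells, 451, 1782 and 308 in CD11c- cells and 164, 247 and 287 in controls. Unlike Lcn2, C3 was well above 0 in CD11c+ cells, and its level spanned 13.4-fold over the libraries. Orm1, which encodes orosomucoid, had 1 and 1 counts in CD11c+ cells, 20, 56 and 7 in CD11c- cells and 6, 5 and 8 in controls.

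**Figure D4:**
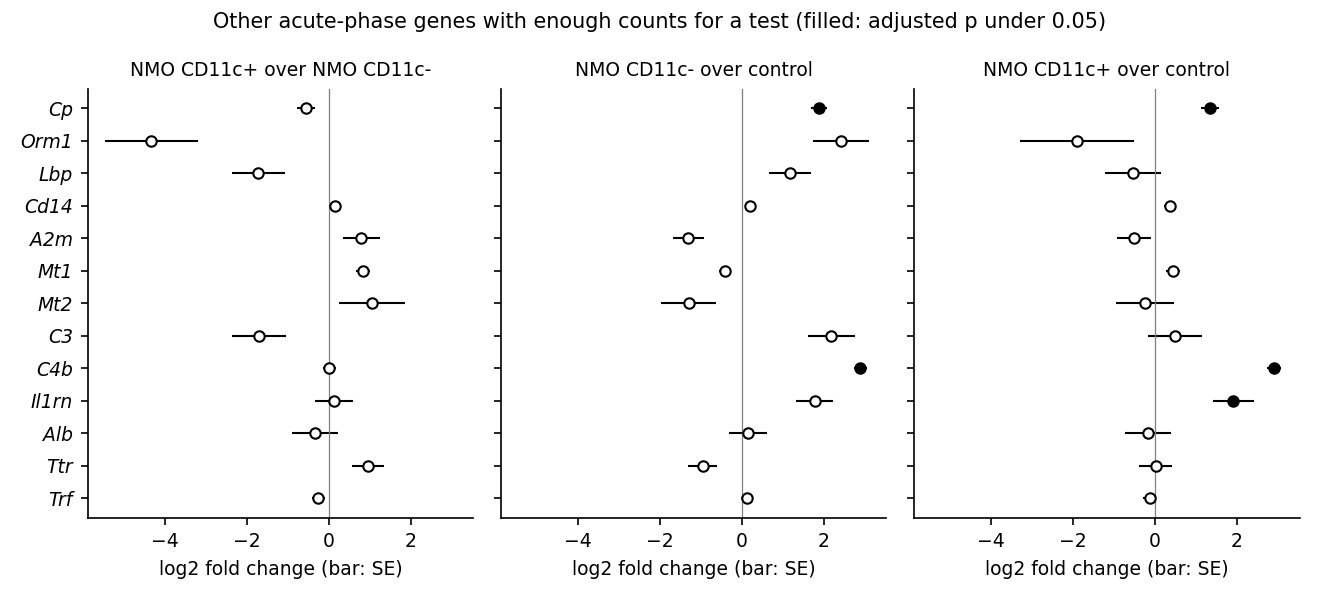
Log2 fold change (edgeR) of the 13 tested acute-phase genes other than the 6, in each comparison, with standard errors as bars; filled points passed an adjusted p under 0.05, and the Orm1 values of CD11c+ cells rest on 2 counts. No point is filled between the NMO subsets, while Cp and C4b are filled in both comparisons with controls and Il1rn in that of CD11c+ cells.

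Of 28 cytokines, receptors and signalling genes that induce the acute-phase response, 25 could be tested, and the oncostatin M receptor Osmr had 0 counts. Between the NMO subsets 0 were called by edgeR, with 6 at an unadjusted p under 0.05 and 1 called lower by DESeq2, where 0.283% of all tested genes were called by edgeR and 15.4% had an unadjusted p under 0.05. For NMO CD11c- over control cells 1 of the 25 was called, where 3.72% of all tested genes were called. This gene was Il1b, which encodes interleukin-1 beta, at 11.3 ± 1.87 CPM against 4.68 ± 0.839 CPM (log2 fold change 1.27, SE 0.301, edgeR adjusted p = 0.049). It lost this call without any 1 of the CD11c- or control libraries (adjusted p 0.0726 to 0.178). In CD11c+ cells Il1b averaged 15.2 ± 8.45 CPM, a log2 fold change of 1.70 over control (SE 0.328, edgeR adjusted p = 0.0115), lost without control replicate 3 (0.0569) and reduced to 0.96 without CD11c+ replicate 2.

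Lifr, a receptor of the interleukin-6 family, was called lower in CD11c+ cells, at 81.6 ± 10.5 CPM against 135 ± 15.2 CPM in controls (log2 fold change -0.73, edgeR adjusted p = 0.0172), and lost the call without CD11c+ replicate 1 (0.0662) or control replicate 1 (0.056) or 3 (0.0706). Of the other genes of the list, Il6 averaged 3.65 CPM in CD11c+ cells, 5.12 CPM in CD11c- cells and 6.27 CPM in controls. Stat3 averaged 225 CPM in CD11c+ cells, 219 CPM in CD11c- cells and 221 CPM in controls, and the interleukin-6 receptor gene Il6ra averaged 497 CPM in CD11c+ cells, 495 CPM in CD11c- cells and 579 CPM in controls. Socs3, the feedback inhibitor of interleukin-6 signalling, averaged 773 CPM in CD11c+ cells with 285 and 1262 CPM in its libraries, 460 CPM in CD11c- cells and 1020 CPM in controls. The cytokine Tnf stood at 31.7 and 167 CPM in the CD11c+ libraries, below and above every control, and averaged 50.7 ± 18.5 CPM in CD11c- cells and 82.8 ± 12.0 CPM in controls. Osm stood at 50.04 and 172 CPM in the CD11c+ libraries, and averaged 54.4 ± 18.2 CPM in CD11c- cells and 49.7 ± 6.03 CPM in controls. Il6st, the shared signal-transducing subunit, averaged 458 CPM in CD11c+ cells, 583 CPM in CD11c- cells and 484 CPM in controls, and Il1r1, the interleukin-1 receptor, 8.67 CPM in CD11c+ cells, 7.29 CPM in CD11c- cells and 4.30 CPM in controls. The transcription factors Cebpb and Cebpd averaged 39.5 and 40.9 CPM in CD11c+ cells, 24.6 and 42.0 CPM in CD11c- cells and 23.2 and 45.9 CPM in controls, and Nfkbiz, a nuclear cofactor of NF-kappa B, stood at 96.0 and 630 CPM in the CD11c+ libraries, below and above every control, and averaged 172 ± 94.9 CPM in CD11c- cells and 303 ± 148 CPM in controls. Besides Il1b and Lifr, no gene of the list was called in any comparison. For CD11c+ over control that made 1 of 25 higher and 1 lower, where 6.85% of all tested genes were called higher and 3.36% lower. The median log2 fold change of the 25 was 0.0951 between the subsets, -0.118 for CD11c- over control and 0.0266 for CD11c+ over control.

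Among 21 receptors and partners of the 6 proteins, 19 could be tested. Between the subsets 1 of the 19 was called, where 0.283% of all tested genes were called. For CD11c- over control 2 were called, both higher, where 3.0% of all tested genes were called higher. An unadjusted p under 0.05 (edgeR) was found for 6 between the subsets, against 15.4% of all tested genes. It was found for 5 in CD11c- over control (all genes 18.8%) and 12 in CD11c+ over control (28.8%). Fpr2, a formyl peptide receptor that binds serum amyloid A, averaged 0.204 CPM in CD11c+ cells (2 and 0 counts), 11.2 CPM in CD11c- cells (42, 129 and 54 counts) and 2.90 CPM in controls (19, 24 and 29 counts). It was called lower in CD11c+ than in CD11c- cells (edgeR adjusted p = 0.0316), the 1 call of the list between the subsets, and lower than in controls (0.0467), and higher in CD11c- than in control cells (0.0448). All 3 calls were lost on leaving out any 1 control library (adjusted p 0.0627 to 0.2). The call between the subsets was also lost without CD11c+ replicate 1 (0.09), that of CD11c+ over control without CD11c+ replicate 1 (0.0819) or 2 (0.108) or CD11c- replicate 3 (0.0608), and that of CD11c- over control without CD11c- replicate 2 (0.117) or 3 (0.0502). The scavenger receptor Cd36 was called higher in CD11c- cells (log2 fold change 1.41, edgeR adjusted p = 0.0141) and in CD11c+ cells (1.32, 0.0189) than in controls, at 7.23 CPM in CD11c+ cells, 7.70 CPM in CD11c- cells and 2.87 CPM in controls. Cd36 lost both calls without control replicate 1 or 3 (0.0623 to 0.0669), and 1 each without CD11c- replicate 1 (0.0593) and CD11c+ replicate 1 (0.0727).

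In CD11c+ over control cells 2 further genes of that list were called higher and 2 lower beside Cd36 and Fpr2, so that 3 of 19 were higher and 3 lower, where 6.85% of all tested genes were called higher and 3.36% lower. Ager, a receptor for advanced glycation end products and S100 proteins, averaged 17.0 ± 10.3 CPM in CD11c+ cells and 4.72 ± 0.822 CPM in controls (log2 fold change 1.83, edgeR adjusted p = 0.00936), and kept the call without any 1 library, at a log2 fold change of 1.03 without CD11c+ replicate 1. Tlr2, a receptor of bacterial lipoproteins that serum amyloid A also engages, averaged 398 ± 136 CPM in CD11c+ cells and 213 ± 7.78 CPM in controls (0.90, edgeR adjusted p = 0.0132), but not without any 1 control library (0.0504 to 0.0597). In CD11c- cells Ager averaged 11.5 ± 1.02 CPM and Tlr2 296 ± 25.1 CPM, both between CD11c+ cells and controls. Neither was called for CD11c- over control (log2 fold change 1.27 and 0.48, edgeR adjusted p = 0.0534 and 0.145) or between the subsets. Tlr4 (log2 fold change -0.89, edgeR adjusted p = 0.0379) and the TGF-beta receptor Tgfbr1 (-0.72, edgeR adjusted p = 0.0389) were lower in CD11c+ cells than in controls. Both lost the call without CD11c+ replicate 1, CD11c- replicate 1 or 3, or any 1 control library (0.0587 to 0.118 for Tlr4, 0.0582 to 0.12 for Tgfbr1). With the neutrophil covariate, all calls of these 3 lists other than those of C4b were lost. That covariate nearly coincided with the CD11c+ group, so losses in comparisons with those cells cannot tell markers and group apart. The Lcn2 receptor Slc22a17, at 153 CPM in CD11c+ cells, 120 CPM in CD11c- cells and 114 CPM in controls, and the haptoglobin receptor Cd163, at 15 ± 13.7 CPM in CD11c+ cells, 14.1 ± 6.21 CPM in CD11c- cells and 8.26 ± 5.28 CPM in controls, were not called in any comparison.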

How the data were processed

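Gene counts were analysed as deposited by the authors, with 41388 gene identifiers in each of 8 libraries and 0 columns of per-sample values left unused. Per the submitters' processing notes, STAR 2.3.11, HTSeq 0.5.4, edgeR 3.12.0 and GRCm38 were used; the strand setting is not given in the sources used here, nor is the annotation release. Symbols, coordinates and transcript lengths came from GENCODE M21 (40254 identifiers matched), and promoters from RefSeq (GRCm38.p6). Hp had no promoter entry.

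Counts were scaled by TMM, and 1 quasi-likelihood fit of all 8 libraries was made with edgeR 4.0.16 and limma 3.58.1 under R 4.3.3. Genes were kept by filterByExpr (minimum count 10, by group), leaving 12002. Calls needed an adjusted p (Benjamini-Hochberg, all tested genes) under 0.05. CPM are relative to TMM-scaled library sizes. Where a group held 3 counts or fewer, the ratio of summed counts per scaled library size is given with an exact 95% interval (Clopper-Pearson, scipy 1.17.1). A group at 0 was set to a floor of 3 counts. Intervals and floors cover counting error only. Profiles were compared on log2 CPM with a prior count of 2. The fit was tested on simulated data.

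The 6 genes and all gene lists were chosen with earlier results of these data known. Genes named are the 6, the called genes and set examples of 3 related lists, and the 5 nearest profiles. C3, Orm1 and Lbp were described by library after their values were seen. Alternatives were no or a stricter filter, RLE or library-size scaling, DESeq2 1.42.0, only the groups compared, a neutrophil covariate, a correction for GC content and length, and each library left out.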

Additional observations from a re-analysis of the deposited data

How the results depend on the processing

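Of 792 alternative values, 585 were kept. A kept value was a call that stayed, or a fold that moved by less than the spread between replicates. Counts of called genes were kept where they were equal or close to the reported count. The direction of CD11c- over control turned for Lcn2 (log2 -0.22) and Lrg1 (-0.10) with the neutrophil covariate, which also gave Hp 0.0915, and Lcn2 -0.0743 for CD11c+ over CD11c- and -0.30 over control; the cause was not tested. The covariate also turned Saa3 in CD11c+ over CD11c- cells, to 0.05 against -0.87 without it, a shift within that spread. Covariate values for CD11c+ cells are extrapolated, because marker levels of that group lay far from all others. The covariate also holds genes with profiles close to those of Lcn2, Hp and Lrg1, so small values for these follow from its make-up. No other alternative turned a log2 fold change or ratio. Counts of called genes depended on the processing. In CD11c+ over CD11c- cells, 12 genes were higher and 22 lower, against 264 and 443 with no filter, 107 and 161 with DESeq2, 2 and 3 with only the groups compared, 0 and 0 with the covariate and 38 and 45 with the GC correction. In CD11c- over control cells the 360 and 86 became 841 and 316, 559 and 137, 803 and 418, 33 and 0, and 696 and 238 in that order. In CD11c+ over control cells the 822 higher became 466 with only those groups and 48 with the covariate, and the 403 lower became 1083 with no filter, 636 with DESeq2, 161 with only those groups and 2 with the covariate. Acute-phase calls between the subsets became 2 higher and 3 lower with no filter and 1 and 1 with DESeq2. Those of CD11c- over control became 6 higher and 2 lower with no filter, 5 higher with DESeq2, 4 and 2 with only those groups, 1 higher with the covariate and 4 and 1 with the GC correction. Inducer calls between the subsets became 7 higher and 1 lower with no filter and 1 lower with DESeq2. In CD11c- over control they became 4 lower with no filter, 1 lower with only those groups and 0 higher with the covariate. In CD11c+ over control they became 4 higher with no filter, 2 higher with DESeq2, with only those groups or with the GC correction, and 0 higher and 0 lower with the covariate.

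Leaving out each library gave 3 to 1435 genes higher and 0 to 1581 lower between the subsets, with the most without CD11c+ replicate 2. It gave 123 to 788 and 18 to 405 in CD11c- over control, and 385 to 2019 and 102 to 2058 in CD11c+ over control. Acute-phase calls ranged over 0 to 3 higher and 0 to 1 lower between the subsets, 2 to 5 and 0 to 2 in CD11c- over control, and 2 to 3 and 0 to 2 in CD11c+ over control. Inducer calls ranged over 0 to 1 higher and 0 to 3 lower, 0 to 1 and 0 to 1, and 0 to 3 and 0 to 6 in the same order. Log2 fold changes or ratios, in the order CD11c+ over CD11c-, CD11c- over control and CD11c+ over control, spanned -1.61 to -0.40, 7.98 to 8.93 and 6.88 to 8.10 for Saa3; -8.04 to -6.53, 1.01 to 2.52 and -5.76 to -5.15 for Lcn2; -8.54 to -6.84, 1.21 to 2.58 and -6.31 to -5.10 for Hp; and -8.04 to -5.19, 1.13 to 2.65 and -5.73 to -3.01 for Lrg1. The smallest Lrg1 values come from the floor, since without CD11c+ replicate 1 that group has 0 counts. Steap4 and Ptx3 gave no fold under any alternative, and the covariate none where a group held 3 counts or fewer. No paired analysis was possible because no label links libraries of the same mouse and replicates were numbered by accession.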
